A study of Mus musculus with 6 samples.

Results

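Collagen IV and the enzymes that modify collagen chains were followed through 8 genes, chosen by symbol for their roles. Among them were the collagen IV chains Col4a1 and Col4a2, and P4ha1 and P4ha2, catalytic subunits of collagen prolyl 4-hydroxylase. The others were the lysyl hydroxylases Plod1, Plod2 and Plod3, and the collagen chaperone gene Serpinh1. All 8 were found among 20764 rows of the deposited table, and all 8 passed the filter on low values that left 16169 genes for testing. The RNA came from 266.6 cells, a mouse pancreatic acinar tumour line, grown in high-glucose DMEM with fetal bovine serum. The 3 control libraries (control replicates 1 to 3) carry the treatment label Control, and the 3 CAF_CM libraries (replicates 1 to 3) come from cells given medium conditioned by cancer-associated fibroblasts for at most 40 days. Culture time and medium of the controls are not given in the sources used here, and conditioned medium and culture time cannot be told apart. All libraries come from 1 cell line, and no label says whether replicates were separate cultures. What the p-values measure is thus library-to-library spread, possibly only technical.

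Collagen IV is the network-forming collagen of basement membranes, the sheets on which acini of the pancreas rest. Its alpha 1 and alpha 2 chains, encoded by a head-to-head gene pair, wind into triple helices inside the endoplasmic reticulum (ER). Before they do, prolyl 4-hydroxylases hydroxylate prolines, which keeps the helix stable at body temperature, and lysyl hydroxylases hydroxylate lysines, to which sugars are attached and at which cross-links later form. HSP47, the product of Serpinh1, binds the folded helix and accompanies it out of the ER. Prolyl and lysyl hydroxylases use oxygen, 2-oxoglutarate, iron and ascorbate, and P4ha1, P4ha2 and Plod2 are known targets of the hypoxia-inducible factors (HIFs).

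Promoter sequences are shown for 4 of the genes, because the prolyl hydroxylases were lower in CAF_CM libraries while the chaperone gene was higher, and because Col4a1 shares its promoter with Col4a2. The windows run from 250 bases before to 50 bases after the transcription start in RefSeq annotation of build GRCm38.p6, which held an entry for 7 of the 8 genes (Plod2 is named only). Capitals mark ACGTG and GCGTG on either strand (CACGT and CACGC when on the reverse strand), the cores of the HIF response element. ACGTG is also part of the E-box CACGTG. P4ha1 lies on the plus strand of chromosome 10 (chr10:59323046-59323345), P4ha2 on the plus strand of chromosome 11 (chr11:54100674-54100973), Serpinh1 on the minus strand of chromosome 7 (chr7:99353190-99353489) and Col4a1 on the minus strand of chromosome 8 (chr8:11312777-11313076).
P4ha1: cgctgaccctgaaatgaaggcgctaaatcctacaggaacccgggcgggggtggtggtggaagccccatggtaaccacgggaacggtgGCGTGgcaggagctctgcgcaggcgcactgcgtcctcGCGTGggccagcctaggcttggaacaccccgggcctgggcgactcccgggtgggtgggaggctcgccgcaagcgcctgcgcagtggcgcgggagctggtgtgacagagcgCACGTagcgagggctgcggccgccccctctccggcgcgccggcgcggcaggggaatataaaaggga
P4ha2: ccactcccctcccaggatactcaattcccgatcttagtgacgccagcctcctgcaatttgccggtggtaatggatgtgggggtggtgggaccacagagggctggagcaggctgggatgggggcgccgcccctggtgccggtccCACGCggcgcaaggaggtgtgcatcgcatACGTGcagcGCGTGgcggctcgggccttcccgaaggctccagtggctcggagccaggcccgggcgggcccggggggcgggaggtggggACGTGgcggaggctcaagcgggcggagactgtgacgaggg
Serpinh1: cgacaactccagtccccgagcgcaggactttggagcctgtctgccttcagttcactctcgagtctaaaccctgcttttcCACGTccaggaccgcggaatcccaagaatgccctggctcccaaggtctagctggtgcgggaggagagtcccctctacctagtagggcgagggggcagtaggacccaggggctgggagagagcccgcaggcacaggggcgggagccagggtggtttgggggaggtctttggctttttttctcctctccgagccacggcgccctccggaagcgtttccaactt
Col4a1: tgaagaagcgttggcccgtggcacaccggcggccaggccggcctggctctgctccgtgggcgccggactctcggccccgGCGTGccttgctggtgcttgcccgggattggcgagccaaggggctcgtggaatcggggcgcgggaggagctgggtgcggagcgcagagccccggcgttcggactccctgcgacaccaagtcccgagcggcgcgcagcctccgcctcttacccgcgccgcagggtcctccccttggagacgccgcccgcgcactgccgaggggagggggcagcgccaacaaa
The P4ha1 window held 2 GCGTG matches and 1 ACGTG match, and the P4ha2 window held 2 of each. Serpinh1 had a single ACGTG match and Col4a1 a single GCGTG match. Of the windows not shown, Plod3 held 3 GCGTG and 1 ACGTG, Plod1 held 2 GCGTG and Col4a2 held 1 GCGTG. The Col4a2 window (chr8:11312555-11312854, plus strand) shares 78 bases with that of Col4a1. At least 1 of these motifs was present in 7 of the 7 windows and ACGTG in 4 of 7, against 43.8% and 19.6% of all 32851 promoter windows in the table. Among the 9690 windows with a GC content of at least 60%, as in 6 of these 7, the shares were 69.2% and 26.5%. A match describes letters in a window and does not show that a factor binds there.

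Between 18622370 and 21002226 reads lay behind each library, and the 8 genes had 377 to 3836 reads per library. Levels are given as normalized counts (reads divided by 1 factor per library), with means ± SD and n = 3 libraries per group throughout. Fold changes are differences of log2(value + 1), tested with limma over all 16169 genes with Benjamini-Hochberg adjustment and a threshold of 0.05. At that threshold 18.3% of all genes tested were higher in CAF_CM and 16.1% were lower (2953 and 2602 genes; 2231 and 3179 when values were scaled to library totals). In bulk RNA, fewer cells of a type and less RNA per cell cannot be told apart. Of 12 acinar markers tested, 6 fell (Ctrb1, Cela1, Cela2a, Cel, Amy2a5 and Rbpjl), Nr5a2 rose and 5 did not pass, among them Cpa1, Ptf1a and Bhlha15 (log2 fold changes of 0.12, 0.15 and 0.14). The call of Cel was lost under 10 alternatives (adjusted p up to 0.236), DESeq2 among them, and that of Nr5a2 without control replicate 1 or 2 (0.0555 and 0.0572). The summed level of the list, mostly Ctrb1 and Cela1, was 69541 to 72036 in controls and 38694 to 45423 in CAF_CM. Pnlip, Cela3b, Ctrl and Clps, digestive enzyme genes of mature acini, were close to 0 in both groups, with means of 10.7 normalized counts or less. Summed fibroblast markers were 4401 to 4517 in controls and 4198 to 4495 in CAF_CM (8 of 14 listed tested, Col1a2 higher, Dcn lower but with an adjusted p of 0.0670 without control replicate 3), endothelial ones 249 to 273 and 214 to 278 (3 of 7 tested, none called) and leukocyte ones 102 to 116 and 65.6 to 107 (1 of 7 tested, not called). Only 2 of the fibroblast markers had a mean of at least 100 normalized counts, so most of their sum rests on these. Among fibroblast-defining genes, Col1a1 was at 9.09 in controls and 12.5 in CAF_CM and Postn at 8.72 and 5.58. The part of acinar identity or of other cells in the results below was not tested.

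The comparison asks how transcripts for making and modifying basement membrane collagen compare in 266.6 cells given fibroblast-conditioned medium and in controls. All 5 hydroxylase genes were lower in CAF_CM, by 1.24-fold (Plod3) to 1.62-fold (P4ha2). The chaperone gene Serpinh1 and the collagen chain gene Col4a2 were slightly higher, and Col4a1 did not pass the test. Of the 8 genes, 2 thus rose and 5 fell, beside 18.3% and 16.1% of all genes. Their median log2 fold change was -0.34, against 0.0046 over all genes tested. The 8 genes were chosen with earlier results of these data known, so these comparisons give no independent support. The groups did not overlap for 7 of the 8, the exception being Col4a1. The share of all genes tested without overlap was not computed, so this count is not a result about these genes.

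**Figure D1:**
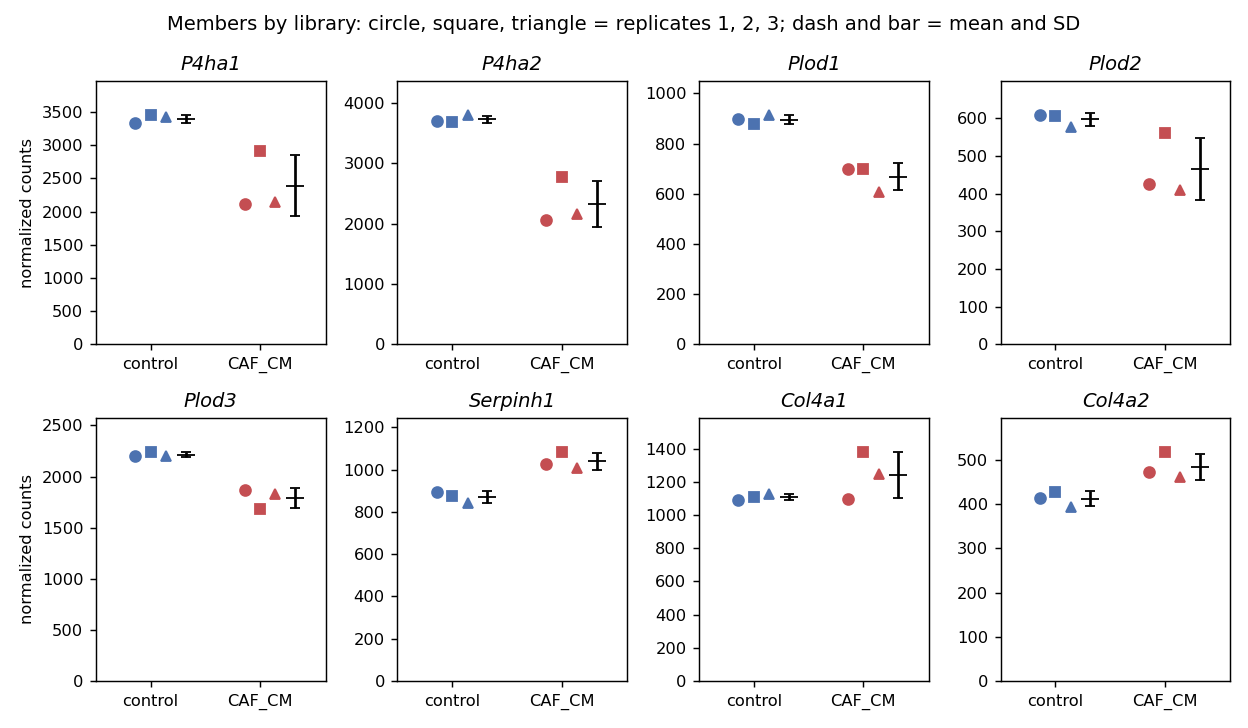
Normalized counts (y axes, from 0) of the 8 genes in control and CAF_CM libraries; circles, squares and triangles are replicates 1, 2 and 3, and the dash with bars is the mean ± SD of 3 libraries. The 5 hydroxylase genes lie lower in all CAF_CM libraries than in any control, Serpinh1 and Col4a2 lie higher, and Col4a1 overlaps.

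P4ha1 and P4ha2 encode alternative catalytic subunits that pair with protein disulfide isomerase to form collagen prolyl 4-hydroxylase. A further subunit gene, P4ha3, was low, at 18.5 ± 1.06 normalized counts in controls and 16.3 ± 3.95 in CAF_CM. It did not pass (adjusted p = 0.596 in limma). P4ha2 was at 3695, 3692 and 3796 normalized counts in control replicates 1, 2 and 3 and at 2053, 2767 and 2160.26 in the CAF_CM replicates. Every CAF_CM library was below every control, and CAF_CM replicate 2 stood nearest to them. The mean went from 3728 ± 59.5 to 2327 ± 385, a log2 fold change of -0.69 (SE 0.09, 95% interval -0.89 to -0.49, adjusted p = 2.44e-04 in limma). P4ha1 was at 3337, 3452 and 3422 in controls and at 2120.04, 2920.39 and 2138 in CAF_CM. The order of the libraries was the same: CAF_CM replicate 2 kept 85.8% of the control mean, and replicates 1 and 3 kept 62.3% and 62.8%. The mean went from 3404 ± 59.5 to 2393 ± 457 (log2 fold change -0.52 with SE 0.10 and 95% interval -0.74 to -0.31; adjusted p = 0.00226 in limma).

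The P4ha1 and P4ha2 subunits pair with the same partner, and their balance was compared within libraries, where the scaling cancels. Per kb of the longest annotated transcript, P4ha2 was the more abundant, at 1218 against 842 in controls and 760.35 against 592 in CAF_CM. The ratio of P4ha2 to P4ha1 in normalized counts was 1.11, 1.07 and 1.11 in controls and 0.968, 0.947 and 1.01 in CAF_CM. The groups did not overlap, and the mean log2 ratio differed by -0.17. With 3 libraries against 3, the two-sided exact permutation p was 0.1, the smallest this design allows, and 0.4 after adjustment over the 4 ratios compared. The design therefore cannot place this shift past the threshold.

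The lysyl hydroxylases differ in where they act: Plod2 hydroxylates lysines of the telopeptides, which determines the type of cross-link in fibrillar collagen, Plod1 acts within the helix, and Plod3 also transfers sugars to hydroxylysine, a modification that collagen IV carries in large amounts. Plod1 was at 898, 876 and 913 normalized counts in controls and at 699, 698 and 608 in CAF_CM. It kept 67.9% to 78.1% of the control mean, with CAF_CM replicates 1 and 2 close together and replicate 3 the lowest. The log2 fold change was -0.42 (SE 0.07, 95% interval -0.57 to -0.28, adjusted p = 7.62e-04 in limma). Plod3 was at 2199.9, 2239 and 2199 in controls and at 1864, 1683 and 1824 in CAF_CM. Here CAF_CM replicate 2 was the lowest library, unlike for the prolyl hydroxylases. The log2 fold change was -0.31 (SE 0.05, 95% interval -0.42 to -0.19, adjusted p = 0.00118 in limma). By annotation 11.9% of the exonic bases of Plod3 are shared with Znhit1 and Mir702, and how reads there were counted is not given in the sources used here.

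Plod2 was at 608, 606 and 578 normalized counts in controls and at 424, 561 and 410.03 in CAF_CM. CAF_CM replicate 2 kept 94.0% of the control mean and lay just below the lowest control, while replicates 1 and 3 kept 71.0% and 68.7%. The log2 fold change was -0.37 (SE 0.10, 95% interval -0.60 to -0.14, adjusted p = 0.0174 in limma). This call was lost without CAF_CM replicate 3 (log2 fold change -0.29, adjusted p = 0.0773), without control replicate 1 (adjusted p = 0.0689) and without control replicate 2 (adjusted p = 0.0637). By annotation 6.42% of the exonic bases of Plod2 lie within the predicted gene Gm38391.

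Per kb, Plod3 was the most abundant lysyl hydroxylase transcript, with 63.9% of the family sum in controls and 65.3% in CAF_CM. Plod1 held 20.7% and 19.5%, and Plod2 15.4% ± 0.375 and 15.2% ± 2.70. The family sum went from 1056 ± 5.56 to 836 ± 19.0 per kb. In CAF_CM replicate 2 Plod2 lay above its group mean and Plod3 below it. The log2 ratio of Plod2 to Plod1 differed by 0.05 between groups, and by -0.06 without CAF_CM replicate 2 (two-sided exact permutation p = 0.9 over all libraries, 0.9 after adjustment) and that of Plod3 to Plod1 by 0.12 (p = 0.3 in the same exact test, 0.6 after adjustment). Both ratios overlapped between groups.

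Serpinh1, the gene of the collagen-specific chaperone HSP47, was at 895, 876 and 840.5 normalized counts in controls and at 1026, 1083 and 1008 in CAF_CM. All 3 CAF_CM libraries lay above all controls, at 116% to 124% of their mean. The mean went from 871 ± 27.6 to 1039 ± 39.3, a 1.19-fold rise (log2 fold change 0.25 with SE 0.06 and 95% interval 0.13 to 0.38; adjusted p = 0.00528 in limma). Serpinh1 was also the gene whose CAF_CM libraries agreed most closely, with a coefficient of variation of 3.78% against 19.1% for P4ha1.

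For the substrate itself, Col4a1 was at 1087, 1108 and 1127 normalized counts in controls and at 1098, 1379 and 1245 in CAF_CM. CAF_CM replicate 1 lay within the controls and replicates 2 and 3 above them. The log2 fold change was 0.16 (SE 0.08, 95% interval -0.0071 to 0.32, adjusted p = 0.128 in limma), and without CAF_CM replicate 1 it was 0.24 with an adjusted p of 0.00308. It was 0.078 without CAF_CM replicate 2 and 0.071 with the length and GC correction (adjusted p of 0.357 and 0.281). Col4a2 was at 414, 428 and 395 in controls and at 474, 518 and 461 in CAF_CM. The groups did not overlap, and CAF_CM replicate 2 was again the highest. The log2 fold change of Col4a2 was 0.23 (SE 0.07, 95% interval 0.07 to 0.39, adjusted p = 0.0303 in limma). This call was fragile: it was lost without CAF_CM replicate 2 (adjusted p = 0.0665) or without control replicate 1, 2 or 3 (adjusted p of 0.0879, 0.0607 and 0.124), and with DESeq2, library totals or a length and GC correction (adjusted p of 0.0847, 0.0745 and 0.160).

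Per kb, Col4a1 exceeded Col4a2, at 167 against 63.9 in controls and 188 against 75.1 in CAF_CM. Col4a1 made up 72.4% ± 1.07 of the pair in controls and 71.3% ± 1.74 in CAF_CM. The log2 ratio of Col4a2 to Col4a1 differed by 0.07, and by 0.0033 without CAF_CM replicate 1 (two-sided exact permutation p = 0.6 over all libraries, 0.8 after adjustment), with overlapping groups. The genes lie head to head and share 22 exonic bases by annotation, a small part of either.

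Enzyme and substrate transcripts were also set against each other within each library, as a description chosen after the values were seen and with no test. Summed per kb, P4ha1 and P4ha2 went from 2060.1 ± 27.0 to 1352 ± 238, which is 65.6% of control, while Col4a1 and Col4a2 went from 231 ± 2.67 to 263 ± 24.8, which is 114%. The ratio of the first sum to the second was 8.89, 8.81 and 9.01 in controls and 4.99, 5.63 and 4.75 in CAF_CM. The groups were far apart, and the CAF_CM mean of 5.13 ± 0.454 was 57.6% of the control mean of 8.90 ± 0.102. The collagen IV sum rests on Col4a1, which did not pass, and Col4a2, whose call was fragile. Other collagen chains, of which 1 rose and 2 fell among 21 tested, are not in it. Col11a1, among those that fell, was at 137 per kb in controls and 103 in CAF_CM.

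**Figure D2:**
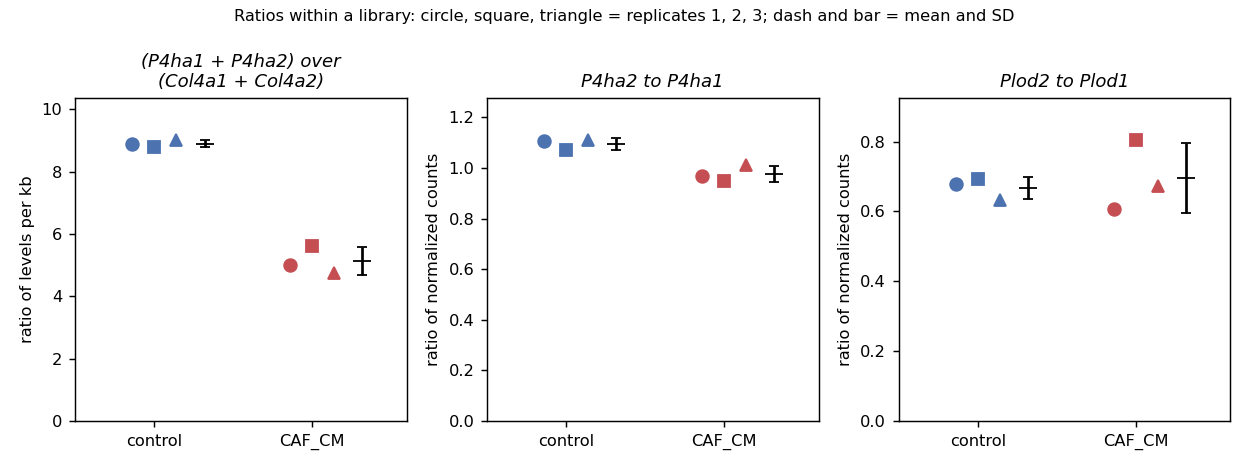
Ratios within each library (y axes, from 0) for the summed prolyl hydroxylases over the summed collagen IV chains per kb, P4ha2 to P4ha1, and Plod2 to Plod1; symbols are replicates 1, 2 and 3, and the dash with bars is the mean ± SD of 3 libraries. The first ratio went from between 8.81 and 9.01 in controls to between 4.75 and 5.63 in CAF_CM, the second was lower in all 3 CAF_CM libraries by a small margin, and the third overlapped.

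Among other ER enzymes and chaperones of collagen modification, of 14 tested 8 fell, 1 rose and 5 did not pass, with a median log2 fold change of -0.20. P4hb encodes the protein disulfide isomerase that is the partner subunit of the P4ha proteins. It fell from 15379 ± 227 to 13331 ± 520 normalized counts (log2 fold change -0.21, adjusted p = 0.00676 in limma). Ppib, the cyclophilin B that isomerizes prolines of the chain, fell from 5114 ± 44.6 to 4133 ± 78.5 (-0.31, adjusted p = 3.93e-04). Colgalt1, which adds galactose to hydroxylysine, fell from 1509 ± 24.3 to 1274 ± 69.5 (-0.25, adjusted p = 0.00550). Its paralogue Colgalt2 had the largest fall of the list, from 217 ± 6.20 to 126 ± 28.1 (-0.80, adjusted p = 0.00148). Crtap and P3h1 form the prolyl 3-hydroxylase complex with cyclophilin B. Crtap had a log2 fold change of -0.31 (adjusted p = 0.0184, but 0.0689, 0.0732 and 0.0639 without control replicate 1, control replicate 2 or CAF_CM replicate 3, and 0.0690 with the length and GC correction). P3h1 was at 628 ± 19.8 in controls and 556 ± 24.4 in CAF_CM and did not pass (adjusted p = 0.0516). The member that rose, named for that reason, was P3h2, a prolyl 3-hydroxylase known to act on collagen IV, at a low 10.5 ± 1.57 and 21.3 ± 2.01 (log2 fold change 0.97, adjusted p = 0.0130, but 0.0824 with DESeq2 and 0.0554 without control replicate 1). The count of 8 falls was 4 without control replicate 1 and 5 without control replicate 2 or CAF_CM replicate 3. With the length and GC correction it was 6, and the median log2 fold change was -0.11.

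**Figure D3:**
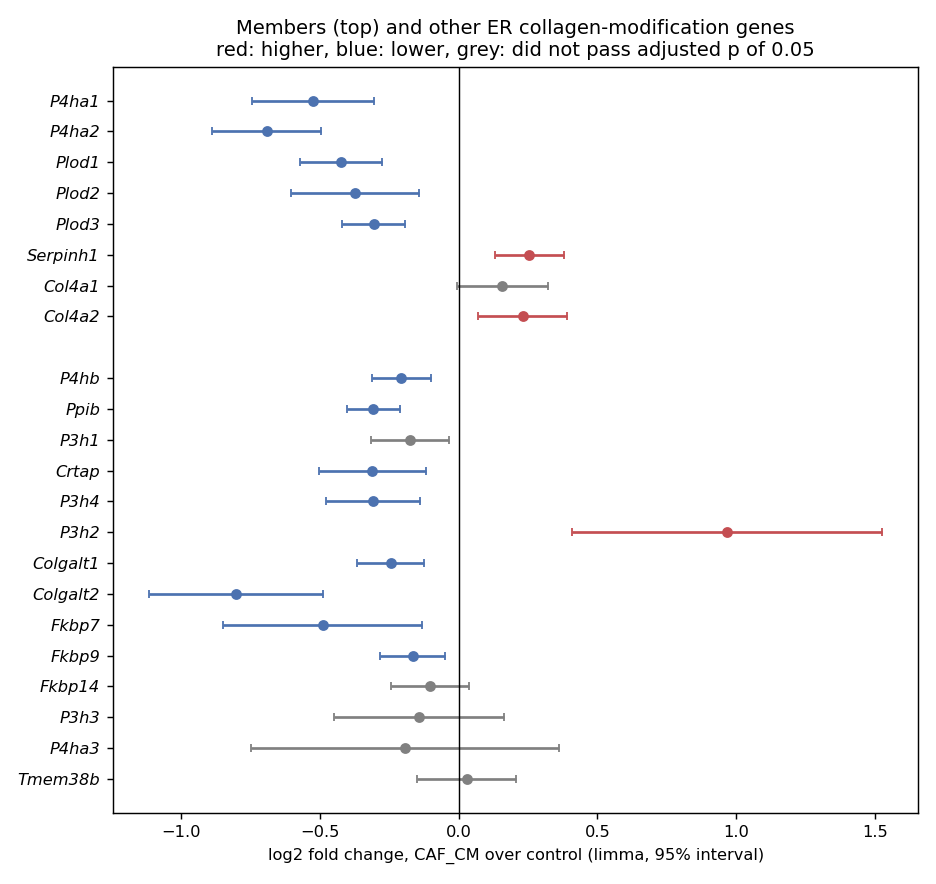
Log2 fold changes, CAF_CM over control (x axis), with limma's 95% intervals for the 8 genes (top) and 14 other genes of collagen modification in the ER; red is higher, blue lower and grey did not pass an adjusted p of 0.05. The 5 hydroxylase genes lie left of 0, as do the 8 other modifying genes that fell, and Serpinh1 and Col4a2 lie right of it.

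General ER folding enzymes, whose clients are not mainly collagens, were listed beside them: 8 of 14 tested fell, none rose, and the median log2 fold change was -0.18. Prdx4, an ER peroxiredoxin that oxidizes disulfide isomerases, fell from 1753 ± 21.9 to 1199 ± 91.8 normalized counts (log2 fold change -0.55, adjusted p = 1.03e-04 in limma). The disulfide isomerases Pdia3 and Pdia4 had log2 fold changes of -0.27 and -0.25, and the ER chaperone gene Hsp90b1 of -0.25, with adjusted p of 0.00155, 0.00191 and 0.00286. A difference between hydroxylases and general folding enzymes was not tested.

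Export of procollagen from the ER, which needs enlarged COPII carriers, had calls both ways: among 15 tested, 4 were higher and 2 lower, with a median log2 fold change of 0.11. Sar1b, the GTPase that starts the COPII coat, fell from 1235 ± 7.83 to 973 ± 39.7 normalized counts (log2 fold change -0.34, adjusted p = 6.70e-04 in limma). The coat subunit genes Sec23a and Sec31a had log2 fold changes of 0.26 and 0.17 (adjusted p of 0.00725 and 0.0150), and Cul3, a ubiquitin ligase scaffold that enlarges the carriers, of 0.18 (adjusted p = 0.0149). The call of Sec31a was lost without control replicate 1 (adjusted p = 0.0923) and that of Cul3 without control replicate 1 or 2 (adjusted p of 0.0727 and 0.0936). Without control replicate 1 the list had 1 rise and 1 fall. The other called genes, named after their values were seen, were Mia2 (-0.20) and Mbtps2 (0.17). Mia2 was not called without control replicate 1 or 3 (adjusted p of 0.0859 and 0.0808), nor Mbtps2 without control replicate 1, 2 or 3 (0.0951, 0.0758 and 0.0672) or with DESeq2, library totals or the length and GC correction (0.0750, 0.0710 and 0.0502). With library totals 3 of the 15 were higher and 4 lower, with a median of 0.064. Mia3, the cargo receptor that loads collagens, was at 3728 ± 73.4 in controls and 3309 ± 368 in CAF_CM and did not pass (adjusted p = 0.0756).

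Among 12 tested genes of extracellular collagen processing and cross-linking, 1 rose and 2 fell, with a median log2 fold change of 0.05. Bmp1, the procollagen C-proteinase of fibrillar collagens, fell from 1977 ± 27.3 to 1276 ± 15.9 normalized counts (log2 fold change -0.63, adjusted p = 1.23e-05 in limma), and its 3 CAF_CM libraries stayed within 63.6% to 65.1% of the control mean. Its enhancer gene Pcolce was at 5340, 3080 and 5013 in CAF_CM against 3144 ± 113 in controls, so the groups overlapped in replicate 2. The log2 fold change of Pcolce was 0.47 (adjusted p = 0.0361), lost with DESeq2 (0.0852), with library totals (0.0564) and without any 1 library other than CAF_CM replicate 2 (0.0611 to 0.150). Timp3, a metalloproteinase inhibitor, had a log2 fold change of -0.26 (adjusted p = 0.0181, but 0.0898 and 0.0629 without control replicate 2 or 3). Pxdn, the peroxidasin that forms the sulfilimine cross-links of collagen IV, was at 2505 ± 38.6 in controls and 2655 ± 383 in CAF_CM and did not pass (adjusted p = 0.551). The lysyl oxidase gene Loxl2, which acts on collagen IV, did not pass either (adjusted p = 0.600).

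Of 18 basement membrane partners tested, 2 rose and 2 fell, with a median log2 fold change of -0.12. Without CAF_CM replicate 2 the falls numbered 8, with the length and GC correction 7, and without control replicate 1 or 2 there was 1 fall and no rise. Vwa1, a perlecan-binding matrix protein gene, fell from 114 ± 3.37 to 67.3 ± 11.3 normalized counts (log2 fold change -0.76, adjusted p = 0.00236 in limma). The laminin chain genes Lamb1 and Lama4 had log2 fold changes of 0.32 and -0.34 (adjusted p of 0.0199 and 0.0350), and the fibulin gene Fbln1 of 0.17 (adjusted p = 0.0271). Each of these 3 calls was lost without control replicate 1 (adjusted p of 0.0881, 0.0655 and 0.0765) and without control replicate 2 (0.0698, 0.144 and 0.115). They were also lost without CAF_CM replicate 3 for Lamb1 (0.0892) and Lama4 (0.0664), without control replicate 3 for Lama4 (0.0785) and Fbln1 (0.0902), without CAF_CM replicate 1 for Lama4 (0.0681), and with DESeq2 (0.0955) or library totals (0.0911) for Fbln1. The perlecan gene Hspg2 was at 1863, 3255 and 2485 in CAF_CM against 2806 ± 31.8 in controls, and the nidogen gene Nid1 at 53.8 ± 12.9 against 37.1 ± 4.62, neither passing the test (adjusted p of 0.355 and 0.0865).

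Among 8 tested collagen receptor genes, Itga2, whose integrin binds collagens, fell from 87.7 ± 3.46 to 47.7 ± 13.4 normalized counts (log2 fold change -0.90, adjusted p = 0.00454 in limma), and no other passed. Without CAF_CM replicate 2, or without replicate 3, 2 of the 8 fell, and with the length and GC correction 3 did. Itga1 of the collagen IV receptor integrin was at 40.7 ± 8.89 in controls and 38.6 ± 13.6 in CAF_CM (adjusted p = 0.772). The receptor tyrosine kinase gene Ddr1 was at 1823 ± 9.05 and 1704 ± 102 (adjusted p = 0.186).

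Collagen chains other than Col4a1 and Col4a2 were mostly not called: of 35 listed 21 were tested, 1 rose and 2 fell, with a median log2 fold change of -0.02. Col11a1, a fibrillar chain, fell from 1049 ± 8.16 to 793 ± 72.5 normalized counts (log2 fold change -0.41, adjusted p = 0.00118 in limma). Col18a1, a basement membrane collagen, had a log2 fold change of -0.30 (adjusted p = 0.0154, but 0.0689, 0.0815 and 0.0525 without control replicate 1, control replicate 3 or CAF_CM replicate 3). Col1a2 was at 78.4 ± 1.94 in controls and 111 ± 21.0 in CAF_CM (log2 fold change 0.48, adjusted p = 0.0299), a call lost with DESeq2 (0.0514) and without any 1 library other than CAF_CM replicate 3 (0.0621 to 0.0902). Another collagen IV chain gene, Col4a5, was at 86.8 ± 2.65 and 73.8 ± 23.5 and did not pass (adjusted p = 0.293).

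The CAF_CM libraries stood in a similar order for P4ha1, P4ha2 and Plod2, but not for Plod1 and Plod3. CAF_CM replicate 2 was the highest of the 3 CAF_CM libraries for 6 of the 8 genes, Plod1 and Plod3 excepted, beside 35.0% of all genes tested and 35.9% of the genes called lower. On the log2 scale, P4ha1 differed from the control mean by -0.68, -0.22 and -0.67 in CAF_CM replicates 1, 2 and 3, P4ha2 by -0.86, -0.43 and -0.79, and Plod2 by -0.49, -0.09 and -0.54. Replicate 2 thus stood nearest to the controls for these 3 hydroxylases. For Plod1 replicates 1 and 2 both differed by -0.36. For Serpinh1, Col4a1 and Col4a2 replicate 2 lay farthest from the controls.

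A list of 26 tested HIF target genes outside the 8 was set beside them. Of these 12 fell and 1 rose, with a median log2 fold change of -0.26; the falls numbered 7 without control replicate 1, control replicate 2 or CAF_CM replicate 3, and 18 without CAF_CM replicate 2. Their mean log2 difference from the control mean was -0.45, -0.05 and -0.51 in CAF_CM replicates 1, 2 and 3, and replicate 2 was the highest CAF_CM library for 26 of the 26. Slc2a1, the glucose transporter GLUT1, fell from 1738 ± 63.1 to 688 ± 42.1 normalized counts (log2 fold change -1.34, adjusted p = 1.62e-06 in limma). Hexokinase 2 (Hk2), the stress-responsive gene Ndrg1 and the ER oxidase gene Ero1a, which reoxidizes disulfide isomerases, had log2 fold changes of -0.64, -0.68 and -0.61 (adjusted p of 8.52e-05, 9.58e-05 and 1.39e-04). Pgk1, Ldha, Aldoa and Eno1, named after their values were seen, did not pass (adjusted p of 0.581, 0.791, 0.647 and 0.367 in limma). For these, CAF_CM replicate 2 was at 116% to 123% of the control mean, and replicates 1 and 3 were below it. The gene that rose, named for that reason, was Ddit4 (log2 fold change 0.25, adjusted p = 0.0496), a call lost with edgeR (0.0503), TMM scaling (0.0569), library totals (0.109) and a filter of a mean of 100 (0.0517), and without control replicate 1, 2 or 3 (0.0941, 0.161 and 0.118). Without CAF_CM replicate 2 its log2 fold change was 0.12 (adjusted p = 0.0805). With the length and GC correction the list's median was -0.17 and 9 of 25 tested fell. Whether HIF activity or oxygen supply has a part in the fall of the hydroxylase genes was not tested.

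Oxygenases and subunits of the HIF pathway itself, which share cofactors with the collagen hydroxylases, were also listed: of 12 tested, 2 rose and 5 fell, with a median log2 fold change of -0.09. Egln3, a HIF prolyl hydroxylase that is itself induced by HIF, fell from 1066 ± 13.9 to 678 ± 167 normalized counts (log2 fold change -0.68, adjusted p = 0.00196 in limma). The histone demethylase genes Kdm3a and Kdm4b had log2 fold changes of -0.49 and -0.33 (adjusted p of 0.00124 and 0.00197). Hif1an, the asparaginyl hydroxylase that inhibits HIF, rose from 1486 ± 89.3 to 1916 ± 102 (0.37, adjusted p = 9.62e-04). The other called genes, also named after their values were seen, were the HIF subunits Hif1a (0.23) and Epas1 (-0.62) and the HIF prolyl hydroxylase Egln1 (-0.19, adjusted p = 0.0489). Egln1 was not called with DESeq2 (0.0679), no filter (0.0566) or the length and GC correction (0.0867), nor without any 1 library other than CAF_CM replicate 1 (0.0501 to 0.172). Hif1a was not called without control replicate 1, control replicate 2 or CAF_CM replicate 3 (0.0752, 0.0751 and 0.0785), nor Epas1 without control replicate 2, control replicate 3 or CAF_CM replicate 3 (0.103, 0.101 and 0.0960). With the length and GC correction 3 of the 12 rose and 4 fell, with a median of 0.0039. The 5 falls were 3 without control replicate 2, control replicate 3 or CAF_CM replicate 3, and the rises were 1 without control replicate 1, control replicate 2 or CAF_CM replicate 3.

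**Figure D4:**
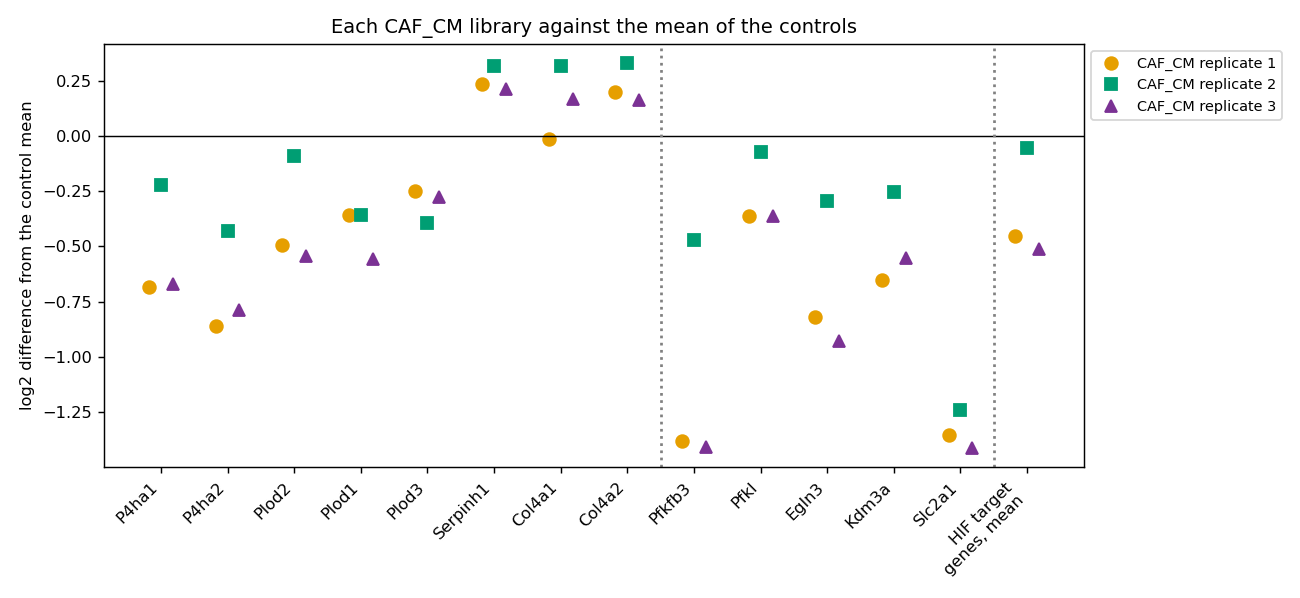
Log2 difference of each CAF_CM library from the control mean (y axis) for the 8 genes, 5 genes of the HIF lists and the mean of 26 HIF target genes; circles, squares and triangles are CAF_CM replicates 1, 2 and 3. For P4ha1, P4ha2, Plod2 and the genes to the right of the first dotted line, replicate 2 lies nearest to 0; for Plod3 it lies farthest from 0.

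The genes whose levels ran most nearly parallel over the 6 libraries were sought among 10636 genes with a mean of at least 100 normalized counts. These correlations are descriptions over 6 libraries of 2 groups and follow the group difference and replicate 2 in large part. Pfkfb3, a regulator of glycolysis in the HIF target list, was nearest to P4ha1 (Pearson r = 0.9995), at 1290 to 1352 normalized counts in controls and 511, 961 and 500.2 in CAF_CM. Fbxl12 and Pcyox1 followed (both r = 0.998). Nearest to P4ha2 were Lyve1 and Anpep (both r = 0.997) and Tmem181a (r = 0.996). The phosphofructokinase gene Pfkl, also on the HIF target list, was nearest to Plod2 (r = 0.998), ahead of Efna1 and Oplah (both r = 0.996). For Col4a1 the nearest were Baz2a (r = 0.995), Dpp8 and Git2 (both r = 0.994).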

How the data were processed

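Total RNA of 1 mouse cell line was made into 6 TruSeq libraries, per the labels' protocols. FastQC, DESeq2 and hg19, a human build, are named in the submitters' processing notes, although the gene symbols are those of mouse; aligner, counting program and mouse build are not given in the sources used here. The deposited values are a signal of at least 0, namely read counts that the authors divided by 1 factor per library. Dividing by the worth of 1 read (0.949 to 1.05 by library) gave whole reads for 100% of values, with a tolerance of 0.001 read. The lowest row total was 10 reads. Rows without a symbol (168, holding 0.153% to 0.261% of reads) stayed out.

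Values were tested with limma 3.58.1 (R 4.3.3) on log2(value + 1), which understates changes of low genes, with a variance trend, over genes that reached 10 in 3 or more libraries. Both groups share 1 variance per gene although the CAF_CM libraries varied more. Ratios between members used two-sided exact permutation tests. On simulated data for this comparison (16005 genes) the test called 100% of genes changed by 1 log2 unit, 86% of those lowered and 84% of those raised by 0.5, and 2 of 15805 unchanged genes. The simulation gave all genes of a group a common spread, drew libraries independently and changed no gene with few reads. Spread differs between genes in the real data, so these rates need not hold there. Alternatives were edgeR 4.0.16 and DESeq2 1.42.0 on recovered reads, pseudocounts of 0.5 and 5, no filter or a mean of 100, library totals, TMM, separate group weights, a replicate block and each library left out. A spline correction for transcript length and GC content, for 15371 genes, was added after the data were seen.

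The 8 genes and all gene lists were chosen with earlier results of these data known, and they give no independent support. Named from each list were up to 4 called genes of lowest adjusted p and genes that act on collagen directly, besides the 3 genes nearest in pattern to Col4a1, P4ha1, P4ha2 and Plod2. Genes without a row, such as Lox, were not analysed here. Levels per kb use the longest GENCODE transcript of a symbol. No interval for counting error is given, since the spread between libraries is.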

Additional observations from a re-analysis of the deposited data

How the results depend on the processing

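P4ha1, P4ha2, Plod1, Plod3 and Serpinh1 kept their direction and call under all 17 alternatives, with adjusted p of at most 0.0152, 0.00291, 0.00720, 0.0117 and 0.0365. Members lower stayed within 1.5 times of 5. Members higher were 1, not 2, with DESeq2, with library totals and with the length and GC correction, since Col4a2 then had log2 fold changes of 0.22, 0.18 and 0.13 past no threshold. That of Col4a1 was 0.071 with the length and GC correction. With libraries left out in turn, members higher ranged from 1 to 3, and log2 fold changes from 0.078 to 0.24 (Col4a1), 0.18 to 0.26 (Col4a2) and -0.52 to -0.29 (Plod2). The causes were not tested, beyond fewer libraries in those fits. Without CAF_CM replicate 2 the log2 ratio of Plod2 to Plod1 reversed, from 0.05 to -0.060, and it ranged from -0.060 to 0.14 over the libraries left out in turn. The other 3 ratios kept their direction when libraries were left out, in designs too small to pass the threshold. Deviations of same-numbered libraries correlated at 0.194, 0.0756 and 0.0728, and those of differently numbered libraries at -0.135 to 0.0719. The same-numbered values were the higher ones but small, and they cannot settle whether the numbers pair the libraries. With the replicate block 2 members were higher and 5 lower, no member's call changed, and 3166 and 2755 of all genes were called. Leaving out control replicate 1 left 1868 and 1659. Across genes, log2 fold change correlated with transcript length (Spearman 0.204, genes not being independent). The lost calls were those of Col4a2 and Plod2, the members with the fewest reads. Col4a2 also had the smallest log2 fold change of the called members (0.23). Plod2 had a CAF_CM coefficient of variation of 17.9%, but P4ha1, with 19.1%, kept its call. The reason for the lost calls was not tested.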
